A study of Sus scrofa with 2 samples.

Results

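Nuclei rich in SLC8A1, the gene of the sodium-calcium exchanger that connecting tubule cells use to move calcium out towards the blood, were picked from single-nucleus RNA sequencing of pig kidney cortex. A nucleus was taken when SLC8A1 made up at least 50 of every 10000 of its UMIs (unique molecular identifiers, each of which stands for 1 captured RNA molecule). The endocytic receptor genes LRP2 and CUBN of the proximal tubule had to be below 30 per 10000 together, and SLC12A1, the cotransporter gene of the thick ascending limb, below 20. Among 12955 barcodes with 500 to 6000 detected genes, 496 met the rule, 293 of 7035 unperfused and 203 of 5920 perfused. The label given to them, connecting tubule nuclei, held for a part of them, and the marker genes described below divided them into a distal tubule class and a class with vascular, stromal or leukocyte markers.

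The kidneys came from slaughterhouse pigs (Sus scrofa). They were flushed, kept cold, and then perfused ex vivo at 37 °C with the pressure held at 100 mmHg, above the physiological range, by a salt solution without red blood cells or albumin. Cortex was taken before perfusion (unperfused) or 120 min after its start (perfused), snap-frozen, and turned into 1 library of nuclei for each condition. The sources do not give the strain, age or sex of the animals, or whether both pieces came from 1 animal. The unperfused library held 34415254 UMIs in 7179 barcodes and the perfused library 35525592 UMIs in 6205 barcodes, with medians of 4001 and 4701 UMIs per kept barcode. With 1 library for each condition and nuclei that are not replicates, no test between conditions was possible, and all intervals below are exact 95% intervals of the counting error alone. Condition, kidney and library cannot be told apart.

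The connecting tubule lies between the distal convoluted tubule and the collecting duct. Its cells take up calcium through the channel TRPV5, carry it bound to calbindin (CALB1), and pass it to the blood side through the exchanger made from SLC8A1 and through calcium pumps, under the control of vitamin D and parathyroid hormone. They also take up sodium through the epithelial sodium channel, built from SCNN1A, SCNN1B and SCNN1G, under aldosterone acting on the mineralocorticoid receptor NR3C2, and they secrete potassium.

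The members made up 4.16% of the unperfused nuclei (3.71 to 4.66%) and 3.43% of the perfused nuclei (2.98 to 3.92%). SLC8A1 itself chose them, so its level is a description: the median was 92.6 per 10000 UMIs in the unperfused members, with a range of 50.3 to 1255, and 82.2 in the perfused members, with a range of 50.03 to 1773. Many members therefore lay close to the minimum. In the unperfused library, 117 members held 50 to 75 per 10000, and 191 further nuclei that passed the other limits held 30 to 50. The same ranges held 88 and 213 perfused nuclei. The other limits removed few nuclei: of 314 and 210 with enough SLC8A1, 14 and 3 were over the limit for LRP2 and CUBN, and 7 and 4 over that for SLC12A1. Scrublet, a doublet caller, marked 14 and 10 members, which were kept, and none of the 14 barcodes that both libraries shared was a member in either.

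Marker genes other than SLC8A1 split the members into separate groups. For each member, the UMIs of 18 connecting tubule and principal cell markers were set against those of 37 endothelial, stromal and leukocyte markers. A member with more of the former, and at least 2, was called distal-marked, and the reverse other-lineage-marked. This split was drawn after the data had been examined, and the levels of its 18 and 37 genes within each class follow from it in part. It left 193 distal-marked members in the unperfused library (65.9% of the members, 60.1 to 71.3%) and 95 in the perfused library (46.8%, 39.8 to 53.9%). The other-lineage-marked members numbered 99 and 104, and 1 and 4 members fell in neither class. Few nuclei were ambiguous, since 9 and 7 members lay within 2 UMIs of the border.

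**Figure D1:**
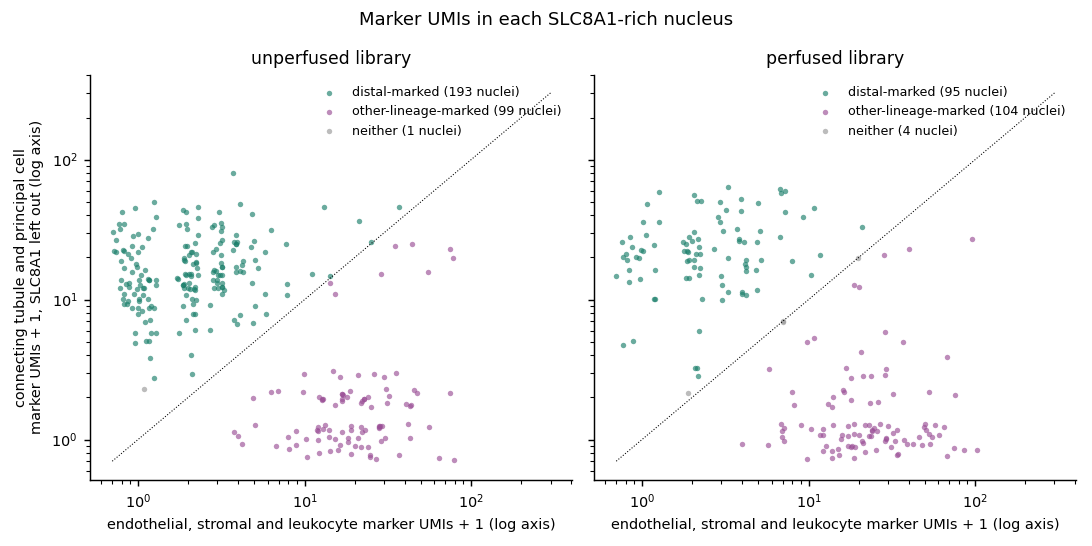
UMIs per member nucleus of the connecting tubule and principal cell markers without SLC8A1 (one axis) and of the endothelial, stromal and leukocyte markers (other axis), in the unperfused and perfused libraries, on log axes after adding 1 and with small random offsets so that points with equal values can be seen. Each point is 1 nucleus and the dotted line marks equal numbers; most points lie along one axis or the other, with medians of 14 and 21 distal UMIs in the distal-marked members and 18 and 21 other-lineage UMIs in the rest.

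The plot of marker UMIs by nucleus shows how far the classes stood apart. The median distal-marked nucleus held 14 UMIs of distal markers in the unperfused library and 21 in the perfused one, beside 1 UMI of the other lineages in each. These are raw counts, and the perfused nuclei were deeper. The median other-lineage-marked nucleus held 0 distal UMIs in both libraries and 18 and 21 UMIs of the other lineages, and 53 and 73 of these nuclei had no distal marker UMI at all. They were also shallower, with medians of 1853 and 2222 UMIs per nucleus against 4452 and 5892 in the distal-marked members.

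The distal-marked share depended on how much SLC8A1 a nucleus held. From 50 to 75 per 10000 it was 38.5% of the unperfused and 21.6% of the perfused nuclei. From 150 to 300 it was 97.4% and 83.3%, and from 300 upwards it was 96.9% of 64 nuclei and 92.3% of 39 nuclei. Just below the minimum, from 30 to 50 per 10000, 24.6% and 12.7% would have been distal-marked. SLC8A1 alone thus marked distal tubule nuclei at high levels and a mixture near the minimum of the rule. The 2 libraries differed most between 75 and 100 per 10000, where 63.6% of 44 unperfused nuclei (47.8 to 77.6%) and 21.9% of 32 perfused nuclei (9.28 to 40.0%) were distal-marked.

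**Figure D2:**
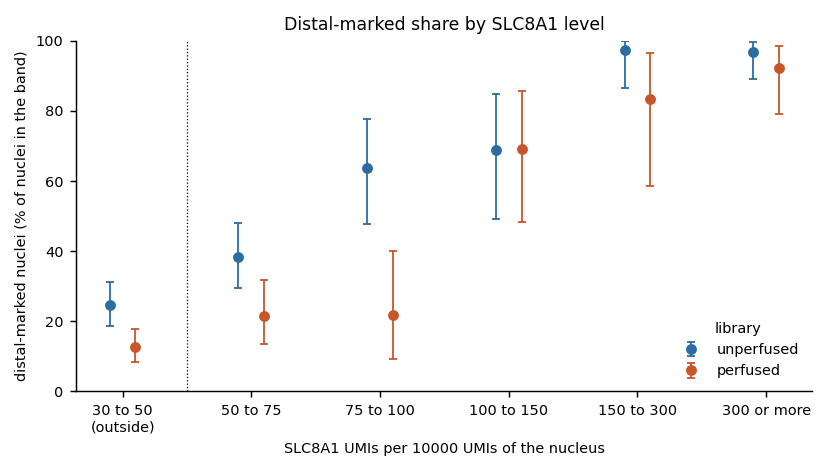
Share of nuclei that were distal-marked (percent) in bands of SLC8A1 UMIs per 10000, for the unperfused and perfused libraries, with exact 95% binomial intervals. The band from 30 to 50 lies outside the rule; the share went from 24.6% and 12.7% there to 96.9% and 92.3% at 300 or more.

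The other-lineage-marked members carried genes of blood vessel and muscle cells. EMCN, an endothelial surface sialomucin, stood at 1537 in the unperfused library and 1262 in the perfused one, in UMIs for every 1000000 of the class (CPM), against 25.2 and 21.0 CPM in the distal-marked members. MYH11, the myosin heavy chain of smooth muscle, stood at 677 and 612 CPM against 3.02 and 0 CPM. The 11 endothelial markers together held 6310 and 5378 CPM in these nuclei, with EMCN the most abundant, and 200 and 170 CPM in the distal-marked members. The 14 stromal and smooth muscle markers held 2150 CPM in these nuclei of the unperfused library and 3606 CPM in those of the perfused one. Their SLC8A1 was lower but far above that of nuclei outside the rule, at 10406 and 12293 CPM against 414 and 383 CPM. Beside MYH11, the 15 genes that stood highest in them over all other nuclei held LRRTM3, KCNQ5, GPC6 and CTNNA3 and the smooth muscle genes ACTA2 and TAGLN. The connecting tubule markers other than SLC8A1 summed to 605 and 373 CPM in them, against 412 and 330 CPM in all other nuclei, and CALB1 had a UMI in 3 of 99 and 8 of 104. The account that follows is of the distal-marked members, with all members beside them where the difference matters.

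In the distal-marked members CALB1 had the highest ratio over all other nuclei among genes with a symbol, after SLC8A1. It stood at 675 CPM in the unperfused library (625 to 728) and 458 CPM in the perfused library (406 to 514), against 17.1 and 12 CPM in all other nuclei. Over all members, whose choice did not use CALB1, it stood at 557 and 330 CPM. TRPV5, the calcium entry channel, stood at 69.4 CPM (54.0 to 87.9) and 22.6 CPM (12.4 to 38.0), from 69 and 14 UMIs, against 1.89 and 1.63 CPM elsewhere. Both genes were thus at their highest in SLC8A1-rich nuclei among the classes compared, although CALB1 and TRPV5 are class markers. S100G, the small calbindin, had only 9 and 1 UMIs, and the symbol TRPV6 was not found among the deposited genes.

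The calcium pumps and the hormone receptors, which no rule used, followed different patterns. VDR, the vitamin D receptor, stood at 881 CPM (824 to 942) in unperfused and 918 CPM (844 to 997) in perfused distal-marked members, against 221 and 194 CPM in distal convoluted tubule nuclei and 131 and 120 CPM in principal cell nuclei. ATP2B1, a plasma membrane calcium pump, was at 117 and 121 CPM, below the 217 and 232 CPM of distal convoluted tubule nuclei. ATP2B4, another such pump, was at 114 and 118 CPM, against 101 and 93.7 CPM there. PTH1R, the receptor of parathyroid hormone, was low, with 14 and 12 UMIs (14.1 and 19.4 CPM against 91.3 and 96.2 CPM in distal convoluted tubule nuclei). VDR therefore set the SLC8A1-rich nuclei apart from both neighbours, while ATP2B1 and PTH1R were higher in the distal convoluted tubule nuclei.

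Those neighbours were also chosen by single genes. Distal convoluted tubule nuclei were 259 unperfused and 104 perfused nuclei with at least 2 UMIs and 5 per 10000 of SLC12A3, the thiazide-sensitive sodium-chloride cotransporter, and little AQP2 and AQP3. Principal cell nuclei were 229 and 132 nuclei with as much of AQP2 and AQP3, the water channels of the collecting duct, and little SLC12A3. Both excluded the members, the proximal tubule and the thick ascending limb by the same limits.

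The sodium channel genes separated the members from the distal convoluted tubule but less from principal cells. SCNN1G, the gamma subunit, stood at 478 CPM (436 to 523) in unperfused and 804 CPM (734 to 877) in perfused distal-marked members, against 27.3 and 3.80 CPM in distal convoluted tubule nuclei and 964 and 1188 CPM in principal cell nuclei. SCNN1B, the beta subunit, stood at 246 and 461 CPM, against 524 and 610 CPM in principal cell nuclei. SCNN1A, the alpha subunit, was at 176 and 142 CPM and differed little from both neighbours, which held 159 and 187 CPM and 137 and 112 CPM. Gamma and beta subunits thus lay between the neighbours, and the alpha subunit did not follow them.

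Of the aldosterone response genes, the receptor was near equal across the distal classes. NR3C2, the mineralocorticoid receptor, had a UMI in all 193 and all 95 distal-marked nuclei and stood at 2386 and 2868 CPM, against 2088 and 2363 CPM in distal convoluted tubule nuclei and 2137 and 2744 CPM in principal cell nuclei. NEDD4L, a ubiquitin ligase that withdraws the sodium channel from the membrane, was at 2112 and 2802 CPM. HSD11B2, the enzyme that shields the receptor from glucocorticoid, stood at 122 and 87.3 CPM, against 132 and 88.6 CPM in principal cell nuclei and 49.3 and 40.5 CPM in distal convoluted tubule nuclei. KLK1, tissue kallikrein, a protease made by connecting tubule cells, went a different way: it stood at 362 CPM (326 to 402) and 147 CPM (118 to 181), and neither neighbour exceeded 46.8 CPM in either library.

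Among potassium and proton transporters, ATP12A, the catalytic subunit of the non-gastric proton-potassium pump, stood at 240 and 249 CPM, against 6.66 and 5.06 CPM in distal convoluted tubule nuclei and 159 and 188 CPM in principal cell nuclei. RHCG, an ammonia channel of the distal nephron, stood at 316 and 501 CPM. KCNJ1, the potassium channel ROMK, was at 105 CPM (85.5 to 127) in the unperfused library and 40.4 CPM (26.2 to 59.7) in the perfused one. ADAMTS16, a secreted metalloprotease given as a marker of these nuclei, was at 745 and 1101 CPM, against 779 and 829 CPM in principal cell nuclei and 281 and 457 CPM in distal convoluted tubule nuclei. Its share of nuclei with a UMI after thinning was 46.8% and 55.8% in the distal-marked members, 45.9% and 34.6% in principal cell nuclei and 28.9% and 36.5% in distal convoluted tubule nuclei, so it was found in all 3 classes.

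**Figure D3:**
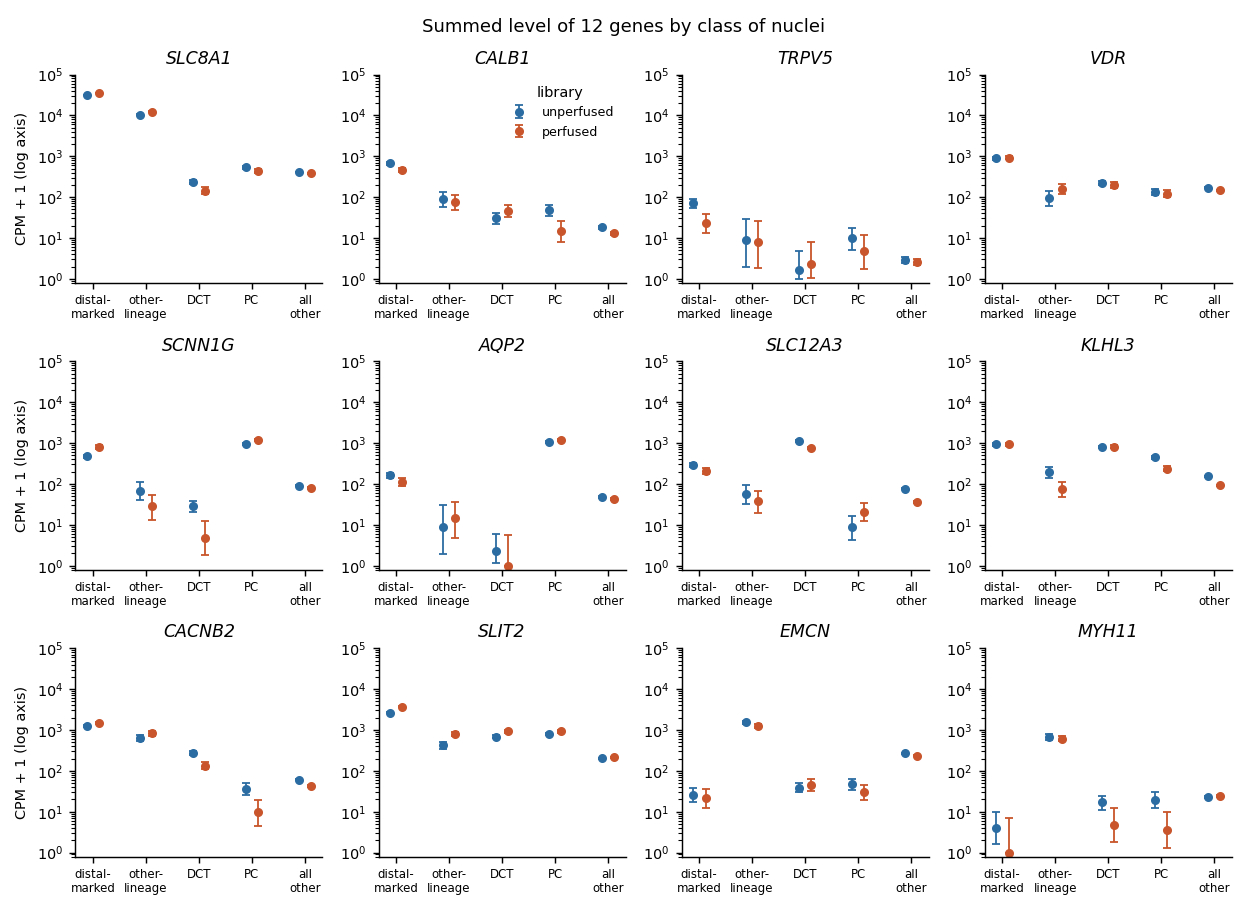
Levels of 12 genes (CPM plus 1, log axis) in distal-marked members, other-lineage-marked members, distal convoluted tubule nuclei, principal cell nuclei and all other nuclei, for the unperfused and perfused libraries, with exact 95% Poisson intervals. CALB1 and TRPV5 are highest in the distal-marked members, SCNN1G lies below its principal cell level of 964 and 1188 CPM, and EMCN and MYH11 are far higher in the other-lineage-marked than in the distal-marked members.

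Outside the lists, the genes that stood highest in distal-marked members over all other nuclei were mostly not transporters. On the log2 scale of the ratio of CPM, CA10, a carbonic anhydrase-related protein without catalytic activity, was 4.41 higher in unperfused and 5.18 higher in perfused nuclei. CACNB2, a beta subunit of voltage-gated calcium channels, was 4.38 and 5.16 higher, and TMEM163, a zinc transporter, 4.19 and 5.24 higher. SLIT2, a secreted guidance protein, stood at 2656 and 3748 CPM with a UMI in 94.8% and 100% of nuclei, and was 3.72 and 4.14 higher. ANGPT1, the ligand of the endothelial TEK receptor, was 2.98 and 3.55 higher, KCNJ5, an inward rectifier potassium channel, 3.16 and 4.43 higher, and SLC52A3, a riboflavin transporter, 3.52 and 3.77 higher. STK32A, TARS3, SAMD5 and AK5 completed the leading genes with a symbol, with the lower of the 2 values between 2.67 and 3.34. The gene ENSSSCG00000050402, which has no symbol in the deposited annotation, stood 6.20 and 6.66 higher, close to SLC8A1 itself at 6.25 and 6.53.

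These leading genes were not all spread evenly over the class. CACNB2 had a UMI in 34.7% and 44.2% of the distal-marked nuclei, and 1 perfused nucleus held 265 of its 933 UMIs. TMEM163 had a UMI in 15.03% and 14.7% of nuclei. SLIT2 and NR3C2, in contrast, were found in nearly every nucleus of the class. CACNB2 was also among the leading genes of the other-lineage-marked members, at 645 and 831 CPM, so it was not limited to the distal-marked nuclei.

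The comparison with each neighbour took genes with at least 30 UMIs in both classes together in each library. Against the distal convoluted tubule nuclei, 268 of 6598 genes (4.06%) were at least 2-fold higher in the distal-marked members in both libraries, and 313 (4.74%) were at least 2-fold lower. For all 496 members, with the other-lineage-marked nuclei among them, 545 of 7597 genes (7.17%) were higher and 300 (3.95%) lower. The median gene differed by -0.09 and -0.11 on the log2 scale in the distal-marked members. ACOXL, an acyl-CoA oxidase-like gene, stood 4.89 and 6.29 higher on that scale, and ADM, the peptide hormone adrenomedullin, 4.48 and 4.67 higher. ATP12A was 5.17 and 5.62 higher, and of the sodium channel and aldosterone list 4 of the 18 genes that could be compared were at least 2-fold higher and 2 lower. The 4 were SCNN1B, SCNN1G, HSD11B2 and KLK1, markers that had helped to choose the distal-marked class. NR3C1, the glucocorticoid receptor, was 1 of the lower ones, at -1.67 and -2.57.

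Of the genes that stood lowest against the distal convoluted tubule, PROX1, HS6ST3 and CADM2 had few UMIs in the distal-marked members. PROX1, a homeobox transcription factor of the distal convoluted tubule, stood at 4.02 and 1.62 CPM (4 and 1 UMIs), against 197 and 179 CPM there. HS6ST3, a heparan sulfate sulfotransferase, stood at 14.1 and 1.62 CPM against 624 and 1018 CPM, and CADM2, a cell adhesion molecule, at 1.01 and 3.23 CPM against 122 and 184 CPM. The magnesium-linked growth factor gene EGF stood at 98.6 and 67.9 CPM against 1560 and 1609 CPM, and its receptor family member ERBB4 was -3.13 and -3.81 on the log2 scale. Of the 12 compared genes for thiazide-sensitive sodium and magnesium transport, 3 were at least 2-fold lower and 0 higher, beside 4.74% and 4.06% of all genes, and SLC12A3 among the 3 had chosen the neighbour. KLHL3, an adaptor that marks WNK kinases for degradation, was not among them: it stood at 929 and 925 CPM and 0.17 higher in each library.

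Against the principal cell nuclei, 233 of 6508 genes (3.58%) were at least 2-fold higher in the distal-marked members in both libraries and 331 (5.09%) lower. Over all members, 461 of 7436 genes (6.2%) were higher and 305 (4.1%) lower. The median gene differed by -0.17 and -0.14 on the log2 scale in the distal-marked members. CACNB2 was 5.15 and 7.43 higher, the latter against 7 UMIs in the principal cell nuclei, and CA10 4.79 and 4.43 higher. ADM was 3.93 and 6.28 higher, and its perfused value also stood against few UMIs in the principal cell nuclei. Of the 12 compared thiazide and magnesium genes, 5 were at least 2-fold higher and 0 lower, among them TRPM6, the apical magnesium channel, at 1.87 and 1.55. SLC12A3, which chose the one neighbour and was kept low in the other, is among the called genes of this list in both comparisons, so its direction was fixed by the choice of nuclei.

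The 8 principal cell markers, which had helped to choose the distal-marked class, lay between principal cells and all other nuclei. They summed to 334 and 306 CPM, against 2049 and 2494 CPM in principal cell nuclei and 155 and 140 CPM in all other nuclei. Of the 4 that could be compared with principal cell nuclei, 3 were at least 2-fold lower and 0 higher, beside 5.09% and 3.58% of all genes. AQP2 and AQP3 are among the 3 and chose the principal cell nuclei, so their direction was fixed by that choice. KIF26B, a kinesin-like gene, stood at 23.1 and 56.6 CPM against 1735 and 3825 CPM in principal cell nuclei, and CPXM2, MCOLN2 and ZBTB7C were also at least 2-fold lower in both libraries. AQP3, which chose the principal cell nuclei together with AQP2, stood at 7.04 and 4.85 CPM against 146 and 175 CPM. Of 21 compared junction and adhesion genes, 7 were lower and 1, LAMB1, a laminin chain, was higher, at 1.27 and 1.06, beside 5.09% lower and 3.58% higher over all genes compared. CLDN4 and CLDN8, claudins of the collecting duct, had log2 values of -2.05 and -1.14 and of -1.54 and -1.01.

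Transcription factors of the distal nephron differed from both neighbours in both directions. Of 21 compared with the distal convoluted tubule, 2 were higher and 3 lower, and of 22 compared with principal cells, 3 were higher and 4 lower. Over all genes compared, 4.06% were higher and 4.74% lower than in the distal convoluted tubule, and 3.58% and 5.09% against principal cells. TFAP2B, a factor of the distal convoluted tubule, was at -1.16 and -1.72 on the log2 scale against the distal convoluted tubule. The estrogen-related receptor gene ESRRB, a regulator of mitochondrial genes, was 2.65 and 3.17 higher than in principal cells, and ESRRG 1.47 and 1.62 higher. TFCP2L1, a factor of the distal nephron and collecting duct, differed by no more than 0.57 from either neighbour in either library.

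The share of nuclei with a UMI was read after thinning each nucleus to 1500 UMIs, since the perfused nuclei were deeper. This left out 5 unperfused distal-marked nuclei as too shallow and 0 perfused ones. CALB1 was found in 50.3% and 45.3% of distal-marked nuclei as sequenced and in 31.9% and 25.3% after thinning. In nuclei rich in LRP2 and CUBN, which should lack it, the share was 1.34% and 0.952% after thinning. SCNN1G was found in 41.5% and 52.6% after thinning, KLHL3 in 72.9% and 70.5%, and VDR in 59.0% and 63.2%. VDR was not particular to the distal nephron, with 25.3% and 26.7% of the LRP2 and CUBN-rich nuclei holding a UMI after thinning. TRPV5 was found in 7.45% and 4.21%, so that most distal-marked nuclei carried no UMI of it at this depth.

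CALB1 and the sodium channel overlapped in part of the class. Of the unperfused distal-marked nuclei, 65 held UMIs of CALB1 and of the sodium channel subunits, 32 of CALB1 alone, 83 of the channel alone and 13 of neither. The perfused counts were 34, 9, 47 and 5. These counts took any UMI as sequenced, without thinning, and the perfused nuclei were deeper. In nuclei rich in LRP2 and CUBN, the shares with a UMI as sequenced were 4.63% and 2.41% for CALB1 and 5.24% and 3.14% for SCNN1G. SLC12A3 and the water channels AQP2 and AQP3 did not meet in any distal-marked nucleus at 5 per 10000 or more each, in either library.

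The rule missed some nuclei with connecting tubule markers. Of 132 unperfused nuclei with at least 2 UMIs of CALB1, 68 (51.5%) were distal-marked members, and of 88 perfused ones 29 (33.0%) were. For TRPV5 these numbers were 15 of 23 and 2 of 6. Among the missed CALB1 nuclei of the unperfused library, 10 held SLC8A1 between 30 and 50 per 10000, 17 were over the limits for proximal tubule or thick limb genes, and 34 held SLC8A1 below 30.

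Within the distal-marked class, the levels varied with SLC8A1. In the unperfused library 73 nuclei held 50 to 100 per 10000, 58 held 100 to 300 and 62 held 300 or more, and in the perfused library 26, 33 and 36. CALB1 stood at 173, 401 and 1315 CPM along these bands in the unperfused library and at 162, 172 and 841 CPM in the perfused library. CACNB2 stood at 158, 172 and 2992 CPM, and at 201, 369 and 3111 CPM. SLC12A3 followed the same order, with 79.0, 169 and 573 CPM and with 32.4, 60.7 and 413 CPM. TRPV5 stood at 145 CPM in the highest unperfused band and 37.5 CPM in the highest perfused band, although its lower perfused bands rested on few UMIs and had no order. The calcium pump ATP2B4 stood at 72.9, 70.3 and 181 CPM and at 45.4, 70.8 and 195 CPM, and ATP2B1 at 134, 98.4 and 116 CPM and at 104, 111 and 139 CPM.

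The sodium channel and ADAMTS16 went the opposite way. SCNN1G stood at 653, 661 and 189 CPM in unperfused nuclei and at 1011, 991 and 544 CPM in perfused ones. SCNN1B stood at 371, 267 and 124 CPM and at 609, 602 and 270 CPM, and ADAMTS16 at 1109, 949 and 276 CPM and at 1885, 946 and 762 CPM. NR3C2 was nearly flat, at 2449, 2408 and 2317 CPM and at 2844, 3101 and 2709 CPM, and KLHL3 had no order. The nuclei richest in SLC8A1 were thus the ones with most CALB1, CACNB2 and SLC12A3 and least SCNN1G, in both libraries. The highest band was also the deepest, with a median of 5612 and 7432 UMIs per nucleus against 4297 and 5552 in the lowest, and SLC8A1 itself filled a larger part of all UMIs there.

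**Figure D4:**
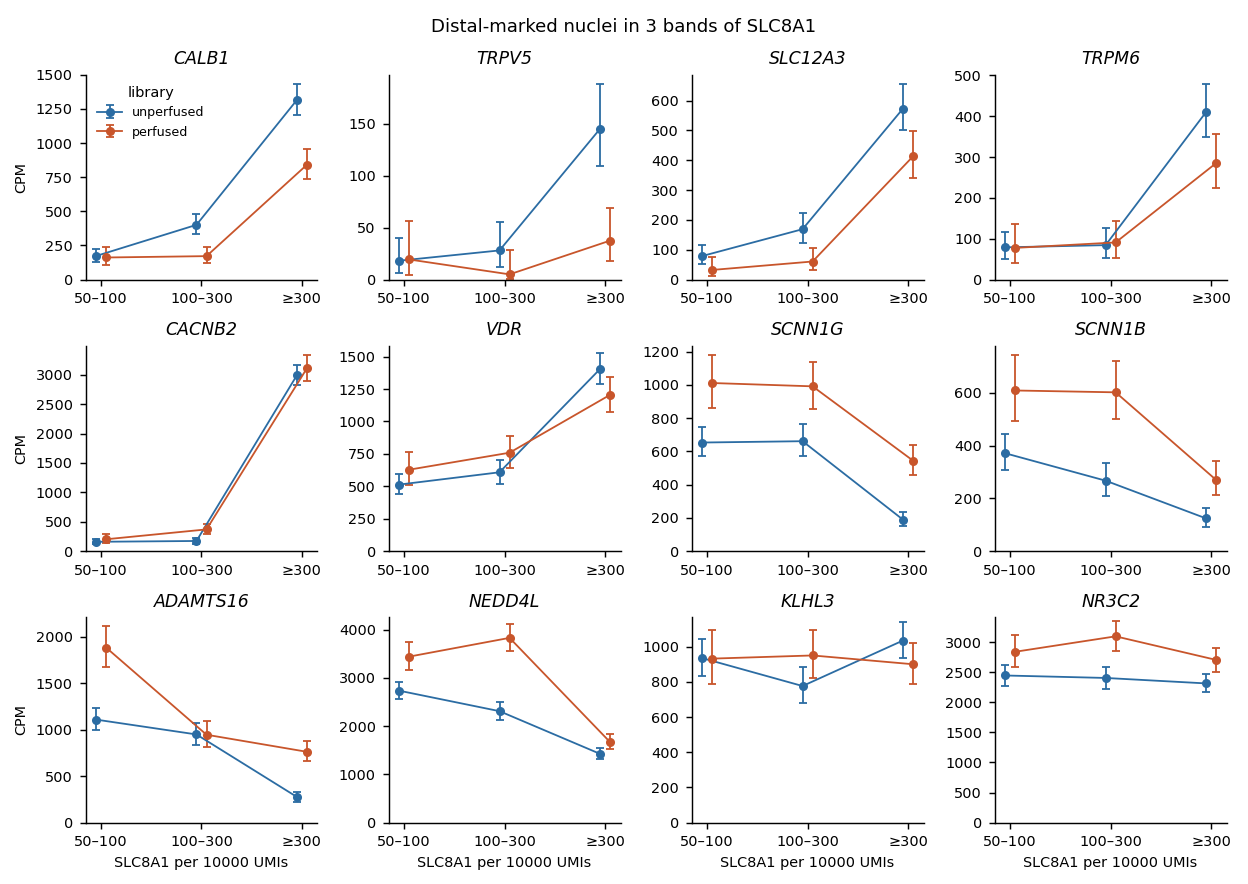
Levels of 12 genes (CPM, with exact 95% Poisson intervals) in distal-marked members with SLC8A1 at 50 to 100, 100 to 300, and 300 or more per 10000 UMIs, for the unperfused and perfused libraries. CALB1, CACNB2 and SLC12A3 are highest in the last band of both libraries, SCNN1G, SCNN1B and NEDD4L are lowest there, and NR3C2 and KLHL3 are nearly flat.

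Nuclei with distal convoluted tubule markers had the most SLC8A1, and those with collecting duct markers did not stand below the rest in both libraries. With SLC12A3 at 5 per 10000 or more, 39 unperfused and 14 perfused distal-marked nuclei had a median SLC8A1 of 577 and 758 per 10000. They held CALB1 at 1493 and 1363 CPM, SCNN1G at 143 and 90.9 CPM and AQP2 at 0 and 8.26 CPM. With AQP2 and AQP3 at 5 per 10000 or more, 23 and 9 nuclei had a median SLC8A1 of 122 and 117 per 10000. They held ADAMTS16 at 2252 and 3066 CPM, SCNN1G at 1011 and 1091 CPM, CALB1 at 230 and 132 CPM and SLC12A3 at 24.7 and 0 CPM. The remaining 131 and 72 nuclei had a median SLC8A1 of 115 and 145 per 10000, intermediate levels of CALB1 (418 and 250 CPM) and SCNN1G (514 and 963 CPM) and the most KLK1, at 499 and 171 CPM.

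The design compares perfused with unperfused cortex, and the shares of nuclei come first. The distal-marked members made up 2.74% of the unperfused nuclei (2.37 to 3.15%) and 1.60% of the perfused nuclei (1.30 to 1.96%). Distal convoluted tubule nuclei made up 3.68% and 1.76%, and principal cell nuclei 3.26% and 2.23%, so all 3 distal classes were a smaller share of the perfused library. The other-lineage-marked members went from 1.41% (1.14 to 1.71%) to 1.76% (1.44 to 2.12%), and the intervals overlapped. Shares of nuclei also depend on which piece of cortex was cut and how its nuclei were recovered, which was not tested.

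All members and the distal-marked ones gave different values for perfused against unperfused. Over all members, 259 of 8593 genes with at least 30 UMIs (3.01%) were at least 2-fold higher and 360 (4.19%) at least 2-fold lower in the perfused library. In the distal-marked members, 95 of 6999 genes (1.36%) were higher and 370 (5.29%) lower, from sums of 993938 unperfused and 618529 perfused UMIs, whose part in this imbalance was not tested. Most of these genes had few UMIs: with at least 100 UMIs over both libraries, 77 and 55 genes were called in all members and 17 and 54 in the distal-marked ones. Among the genes with high ratios in perfused members as a whole were KCND3, a potassium channel (log2 2.74), and TRPC6, a cation channel (2.70). CDH11, a mesenchymal cadherin (2.62), and the transcription factor gene CREB5 (2.61) were others. All 4 were nearly absent from the distal-marked members, with at most 11 UMIs in either library. SPATA22 and XKR4 also had high ratios over all members but lay mostly in the distal-marked ones. Without the richest nucleus of each library, SPATA22 had 27 and 133 UMIs over all members and 27 and 116 in the distal-marked ones. For XKR4 these were 11 and 30, and 9 and 30. The stromal and smooth muscle markers were higher too, with 10 of 12 genes at least 2-fold higher over all members and a summed level of 503 CPM in unperfused and 1173 CPM in perfused members. In the distal-marked members that sum was 87.5 and 58.2 CPM.

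In the distal-marked members the sodium channel genes were higher in the perfused library. SCNN1B was 0.90 higher on the log2 scale (0.65 to 1.15), from 246 to 461 CPM, and SCNN1G was 0.75 higher (0.57 to 0.93), from 478 to 804 CPM. In principal cell nuclei, which also use them, the values were 0.22 and 0.30, and in all other nuclei -0.19 for both. SCNN1B, SCNN1G and ADAMTS16 are class markers, so their levels in the distal-marked members depend in part on the choice of the class. All members were chosen without these genes. There, without the richest nucleus of each library, SCNN1B was 0.62 higher (0.37 to 0.87) and SCNN1G 0.41 higher (0.22 to 0.60). ADAMTS16 was 0.56 higher (0.41 to 0.72), NEDD4L 0.41 higher (0.32 to 0.50) and KCNMA1, a large-conductance potassium channel, 1.27 higher (0.59 to 1.96), though 1 perfused nucleus held 25 of its 48 UMIs and the value was 0.65 (-0.24 to 1.54) without the richest nucleus of each library. SCNN1A differed from them, at -0.31 (-0.69 to 0.07), and ATP12A was nearly level at 0.05 (-0.25 to 0.35). Of the 17 measured genes of the sodium channel and aldosterone list, 10 were higher and 7 lower with a median of 0.21, beside a median of -0.04 over all 6999 genes, and 0 were at least 2-fold higher and 1, KLK1, was at least 2-fold lower, beside 1.36% and 5.29% of all genes.

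The calcium entry and kallikrein genes were lower. TRPV5, CALB1, KLK1 and HSD11B2 are class markers too. Over all members, without the richest nucleus of each library, TRPV5 was at -1.73, CALB1 at -0.88 and KLK1 at -1.41. TRPV5 was at -1.62 (-2.56 to -0.77), with 69 UMIs in 34 unperfused nuclei and 14 UMIs in 12 perfused nuclei, and in all other nuclei it was at -0.21. CALB1 was at -0.56 (-0.77 to -0.36), against -0.51 in all other nuclei. KLK1 was at -1.30 (-1.65 to -0.96), against -1.18 in all other nuclei and -2.06 in principal cell nuclei, so lower kallikrein was shared with nuclei outside the class. KCNJ1 was at -1.37 (-2.06 to -0.73), against -0.32 in all other nuclei, and HSD11B2 at -0.48 (-0.97 to -0.01), although its thinned mean per nucleus was 0.165 unperfused and 0.179 perfused. VDR (0.06), ATP2B1 (0.06) and ATP2B4 (0.05) were nearly level. The 9 measured genes of the calcium list had a median of 0.05 with 5 higher and 4 lower. SLC8A1 is among the 9 and chose the nuclei, so this tally is in part a description.

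The SLC8A1 bands differed between the libraries, so the ratios were also taken within each. SCNN1G was 0.63, 0.59 and 1.52 higher from the lowest to the highest band and SCNN1B 0.72, 1.17 and 1.13 higher, so both were higher in each band. KCNJ1 was lower in each, at -1.61, -2.06 and -1.07, and KLK1 likewise at -2.88, -1.07 and -0.71. CALB1 was at -0.10, -1.22 and -0.65, and TRPV5 at 0.09, -2.48 and -1.95, and for both the interval of the lowest band held 0. By the split on SLC12A3, AQP2 and AQP3 given above, SCNN1G was not higher throughout. It was lower in the 14 perfused nuclei with SLC12A3 and nearly level in the 9 with AQP2 and AQP3. In the remaining 72 perfused nuclei SCNN1G was higher. The perfused distal-marked nuclei were deeper, at a median of 5892 against 4452 UMIs, and 37.9% against 32.1% of them were in the highest band. After thinning every nucleus to 1500 UMIs, the mean UMIs per nucleus were 0.793 and 1.34 for SCNN1G, 0.452 and 0.789 for SCNN1B, 0.511 and 0.221 for KLK1 and 0.766 and 0.558 for CALB1, in the same direction as the ratios. For TRPV5 they were 0.0798 and 0.0421, a smaller difference than in the sums, from 14 and 4 nuclei with a UMI.

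**Figure D5:**
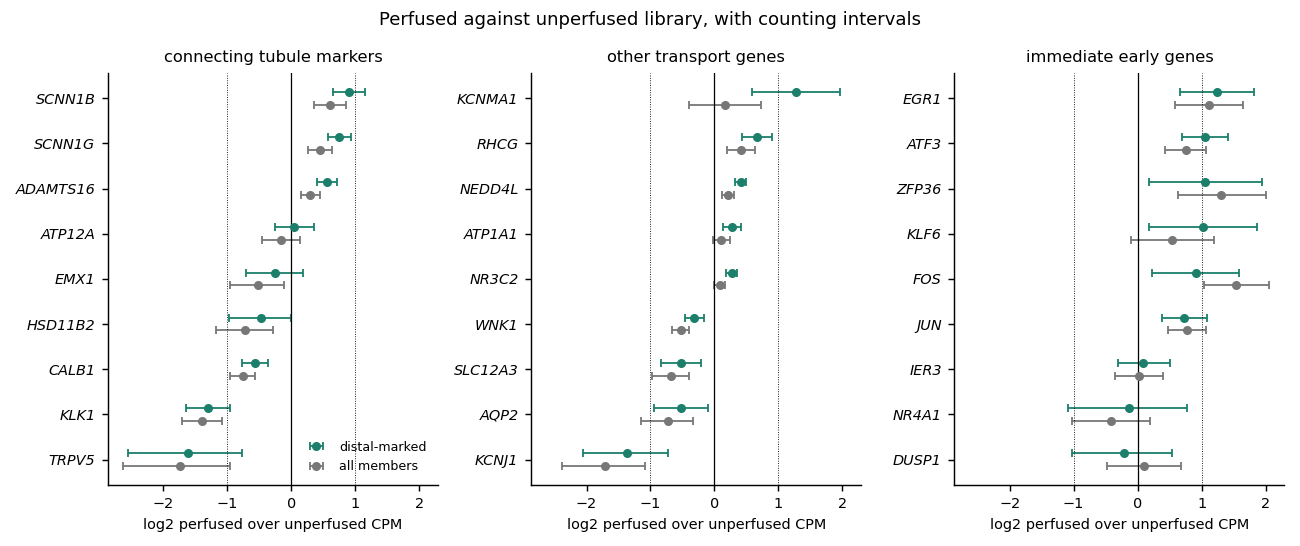
Log2 ratios of perfused over unperfused CPM for connecting tubule markers, other transport genes and immediate early genes, in distal-marked members and in all members, with exact 95% conditional binomial intervals that cover counting error only; the line at 0 marks no difference. SCNN1B and SCNN1G lie above 0 (0.90 and 0.75 in the distal-marked members), CALB1, KLK1, TRPV5 and KCNJ1 below it, and 7 of the 9 immediate early genes above it.

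Immediate early genes, which cells switch on within minutes of a stimulus, were mostly higher in the perfused distal-marked members. Of 24 in the files 9 could be compared, 7 were higher, 4 of them at least 2-fold, and their median was 0.91. Over all genes compared, 3272 of 6999 were higher and 1.36% at least 2-fold higher. EGR1, a zinc finger factor, went from 45.3 to 107 CPM, a log2 ratio of 1.24 (0.67 to 1.82). ATF3, a stress-induced factor, was 1.05 higher (0.69 to 1.42), JUN 0.73 higher (0.38 to 1.08) and FOS 0.91 higher (0.23 to 1.59). NR4A1 and DUSP1 had ratios of -0.14 and -0.22. Principal cell nuclei had 1.57 for EGR1 and all other nuclei 0.98, while in distal convoluted tubule nuclei it rested on 12 and 3 UMIs. Before perfusion EGR1 stood at 45.3 CPM, against 7.99 CPM in distal convoluted tubule and 107 CPM in principal cell nuclei. Of 8 immediate early genes compared, 5 were at least 2-fold higher than in the distal convoluted tubule in both libraries and 0 lower, beside 4.06% and 4.74% of all genes. Against principal cells 1 was higher and 5 were lower, beside 3.58% and 5.09%.

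Other stress lists had medians closer to 0, with members in both directions. Heat shock chaperones had a median of -0.14 over 18 measured genes in the distal-marked members. Of these, 6 were higher and 12 lower, beside 3272 and 3727 of all 6999 genes. Hypoxia targets had a median of -0.02 over 17 genes and NF-kB targets 0.17 over 4. The chaperones' summed level went from 3330 to 2417 CPM in the lowest SLC8A1 band and from 2454 to 3495 CPM in the middle one. Tubule injury and repair genes had a median of 0.11 over 5 genes, the lowest at -1.52. Targets of the actin-linked factors MRTF and SRF had a median of 0.15 over 10 genes in the distal-marked members, the lowest at -1.61, and 0.56 over 20 genes in all members. Mitochondrially encoded genes had 0.03 over 10 genes in the distal-marked and 0.82 in all members. Their sum in the distal-marked bands went in both directions, from 1607 to 920 CPM at SLC8A1 of 50 to 100, from 612 to 956 CPM at 100 to 300 and from 557 to 1021 CPM at 300 or more. In the other-lineage-marked members it was 1712 and 4407 CPM. The mitochondrial and MRTF-SRF lists were thus farther from the median of all genes in all members than in the distal-marked ones.

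Among genes with at least 50 UMIs, those with the largest ratios in the distal-marked members were of mixed kinds. Higher in the perfused library were SPATA22 (2.65, and 1.80 in all other nuclei), the linker histone gene H1-3 (1.66), SPOCK3 (1.61), KLHL21 (1.55), ID2, an inhibitor of helix-loop-helix factors (1.51), CHST9 (1.45) and UBE3D (1.32). XKR4 had the largest ratio, 3.11, with 40 of its 70 perfused UMIs in 1 nucleus and 2.43 (1.32 to 3.69) without the richest, and MX2, an interferon-induced gene, went from 1.33 to 0.55 (-0.12 to 1.22) without the nucleus richest in it. Lower in the perfused library were RN18S, the 18S ribosomal RNA (-2.46, and -1.14 in all other nuclei), GTSF1 (-1.97, and -2.06 in all other nuclei), the gene of carboxypeptidase M (-1.81), FXYD4, a regulator of the sodium pump (-1.79), ZNF891 (-1.79), CCL25 (-1.78) and TMEM108 (-1.66). SLC26A4, the chloride-bicarbonate exchanger of intercalated cells, was at -3.43, where 1 unperfused nucleus held 48 of 52 UMIs, and without the richest nucleus 4 and 1 UMIs were left, at -1.32 (-6.94 to 2.02). ADGRF5 was at -3.02 with 29 of 52 UMIs in 1 nucleus and at -2.24 (-4.62 to -0.52) without it, from 23 and 3 UMIs. Without the richest nucleus of each library, SCNN1G was at 0.72, SCNN1B at 0.92, EGR1 at 1.30 and KLK1 at -1.32, so these did not rest on 1 nucleus.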

How the data were processed

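The authors aligned reads from 10x Genomics 3' v3.1 libraries of pig kidney cortex nuclei with Cell Ranger 5.0.1 to the pig genome of Ensembl release 103, with intronic reads counted. They deposited UMI counts for each gene and barcode, without normalization and from before their filters. The build is not given in the sources used here. The deposited counts covered 31908 genes, 17365 of them with a symbol, from the files or from a table of identifiers. Ambient RNA removal was not run, and doublets were kept in the values given.

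Members and lists were chosen with earlier results of these data known, and the class of distal-marked members was added after seeing the data. UMIs were summed over the nuclei of a class in each library and scaled to 1000000 UMIs of that class (CPM). Intervals are exact at 95% (Clopper-Pearson for shares, Poisson for levels, conditional binomial for ratios) and cover counting error only. Ratios used genes with at least 30 UMIs, zero counts were replaced by 3, and a ratio was left out if its other count did not exceed 3. A gene counted as higher or lower at 2-fold. The scripts recovered the seeded changes on simulated data. Named genes were the given markers, members of the described lists, the 15 with the largest ratio of members over all other nuclei, the 5 highest and 5 lowest against each neighbour, and the 10 with the largest ratio of perfused over unperfused in each direction. The ranking of perfused over unperfused took genes with at least 50 UMIs, and that over all other nuclei genes with at least 100. Genes below these minimums could have larger ratios and were not ranked. PTH1R, NR3C1, ERBB4, LAMB1, the claudins and the other list members named singly were chosen from their lists after their values were seen. Of 416 listed genes, 387 were in the files.

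Alternatives were other minimums of SLC8A1, doublets or nuclei over 7% mitochondrial UMIs removed, nuclei with other lineages', SLC12A3 or water channel markers left out, free RNA subtracted, thinning to 1500 UMIs, nuclei weighted equally, TMM factors (edgeR 4.0.16, R 4.3.3), DESeq2 1.42.0 size factors, other filters on low counts and the richest nucleus left out. Python 3.11.15 was used with numpy 2.4.6, pandas 2.3.3, scipy 1.17.1, scanpy 1.11.5 (Scrublet) and matplotlib 3.10.9. Coordinates and sequences were not used here, and 1 of the genes that the rule for named genes picks out by ratio is not reported here.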

Additional observations from a re-analysis of the deposited data

Results flagged for a closer look

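Outside the limits of 500 and 6000 genes, 7 unperfused and 17 perfused barcodes held SLC8A1 at 50 or more per 10000 UMIs, and the comparisons above did not use them.

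Several listed genes had perfused over unperfused ratios of opposite sign in the distal-marked and the other-lineage-marked members, and these differences between the classes were not tested. In log2 values, with the distal-marked members first, potassium channel genes stood at 1.27 (0.65 without the nucleus richest in it, with an interval of -0.24 to 1.54) and -3.44 for KCNMA1, at 0.29 and -1.38 for KCNJ15 and at 0.24 and -0.96 for KCNQ1. Regulators of mitochondrial genes stood at 0.22 and -1.03 for ESRRB, at 0.41 and -0.86 for ESRRG and at 0.47 and -0.83 for PPARGC1A. Negative in the distal-marked and positive in the other-lineage-marked members were the complement gene C7 (-1.26 and 0.99) and the actin-binding caldesmon gene CALD1 (-1.61 and 0.76). The same held for IRAG1 (-1.15 and 0.57), LAMB1 (-0.13 and 0.40) and RCAN2 (-0.44 and 0.73). C7 is 1 of the 37 genes that split the classes. A single unperfused nucleus held 31 of its 90 UMIs over all unperfused members, and a C7 ratio without that nucleus is not given here. CYYR1 stood at -1.72 and 0.33, and the mitochondrial gene COX1 at -0.33 and 1.23.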

How the results depend on the processing

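No paired analysis was possible because each condition has 1 library. Many nuclei near the SLC8A1 minimum carried other lineages' markers, and counts of 2-fold differences changed with the SLC8A1 minimum, the classes kept, depth and the filter on low counts. With SLC8A1 at 30 or more, the members made up 6.88% of unperfused and 7.03% of perfused nuclei, and at 100 or more 1.88% and 1.40%. The distal-marked share was then 3.41% and 2.06%, and 1.71% and 1.17%. Without SLC12A3-holding nuclei the unperfused share was 3.6% of nuclei for all members and 2.19% for the distal-marked ones, and distal-marked members alone were 2.74% and 1.60%.

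The connecting tubule markers without SLC8A1 summed to 2577 CPM in unperfused and 2409 CPM in perfused members. That sum was 2279 and 1972 CPM at the minimum of 30, 2891 and 2933 CPM at 100, 2767 and 2596 CPM with free RNA subtracted, and 3102 and 3060 CPM without nuclei holding other lineages' markers. It was 2393 and 2229 CPM without nuclei holding AQP2 and AQP3, 2347 and 2007 CPM after thinning, 2252 and 1823 CPM with nuclei weighted equally, and 3077 and 3439 CPM in the distal-marked members.

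The 545 genes at least 2-fold higher in all members than in distal convoluted tubule nuclei became 958 at the minimum of 30, 227 at 100, 232 without other lineages' markers, 297 after thinning, 908 with a filter of 10 UMIs and 268 in the distal-marked members. The 300 lower genes became 142 after thinning and 495 with 10 UMIs. Against principal cell nuclei the 461 higher genes became 772, 218, 216, 265, 793 and 233 in the same order, and the 305 lower genes 157 and 498. In the distal-marked members thinning left 111 higher and 104 lower genes against the distal convoluted tubule and 97 and 129 against principal cells.

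For perfused against unperfused, the 259 higher genes of all members became 415 at the minimum of 30, 163 at 100, 143 without other lineages' markers, 455 with equal weights, 653 with 10 UMIs, 1310 with no filter, 77 with 100 UMIs and 95 in the distal-marked members. The 360 lower genes became 215 without other lineages' markers, 163 after thinning, 542 with equal weights, 1128 with 10 UMIs, 1879 with no filter and 55 with 100 UMIs. In the distal-marked members the 95 higher genes became 56 after thinning, 359 with 10 UMIs, 1023 with no filter, 61 without the richest nucleus and 17 with 100 UMIs. The 370 lower genes became 215 without other lineages' markers, 143 after thinning, 1239 with 10 UMIs, 1833 with no filter and 54 with 100 UMIs. The excess of lower over higher genes in the distal-marked members held under each of these settings. None of them gave the 2 libraries equal sums of UMIs, so the part of the unequal sums in this excess was not tested.

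Among list medians, that of the connecting tubule markers went from -0.34 to 0.03 in all members without other lineages' markers. The calcium list's median went from 0.03 to -0.23 at the minimum of 100. Both medians include SLC8A1, which chose the members. The stromal median of 1.36 over all members went to 2.81 at 100 and reversed to -1.40 without other lineages' markers. It also reversed, to -1.26, in the distal-marked members, where it rests on 1 gene, C7. The median of the immediate early genes in the distal-marked members stayed between 0.39 and 1.06. Scaling by TMM or DESeq2 changed no count by over 1.5 times. Each main result was set against each alternative that applied to it, and these comparisons were counted. A count of genes was called the same within 1.5 times, and other values if they stayed inside a counting interval of the main value. For all members, 135 comparisons were the same, 56 moved and 2 reversed. For the distal-marked members 98 were the same and 15 moved. The remaining differences from the values given were not tested for a cause.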
